A study of Homo sapiens with 6 samples.

Results

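Antisense long non-coding RNAs (lncRNAs) are transcripts read from the DNA strand opposite to a neighbouring gene. Gene nomenclature names each one after that sense gene, with the suffix -AS and a number. The expressed antisense lncRNAs were taken as the genes of the deposited table whose symbol ends in -AS1, -AS2 or -AS3 and whose mean level was 1 or more in log2 CPM, the logarithm of library-scaled read counts, and 115 of the 28395 genes met both conditions. EPB41L4A-AS1 was left out by the same rule. The RNA came from A375 cells, an established human melanoma line labelled as wild type, kept in medium with 0.01% olive oil (OLO) as the control or with ozonated olive oil (OZO) at the same 0.01%, in both cases for 6 h, with 3 libraries in each group.

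The level used throughout is the authors' mean over all 6 libraries, OLO and OZO together. A value per library or per group was not analysed here, so nothing below compares OZO with OLO, no level carries an error between libraries, and no order between 2 genes can be tested. From the lowest values, the geometric mean of the library sizes was 18409902 counted fragments. At that depth the threshold of 1 log2 CPM corresponds to a mean of 36.3 reads per library. The melanocyte-lineage regulators SOX10 and MITF stood at 5.64 and 4.76 log2 CPM. The pigment gene TYR had no read, and MLANA, PMEL and DCT of the same lineage had means of 36.6, 5.75 and 4.74 reads. The immune markers PTPRC and CD3E had means of 1.07 and 0.100 reads. The fibroblast markers COL1A1, DCN and COL1A2 had means of 22.3, 5.12 and 0.100 reads. The keratinocyte marker KRT14 was read at 2.08 log2 CPM, although KRT5 had a mean of 1.56 reads and KRT1 had none.

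An antisense gene can be placed in several ways. It can start close to the promoter of its sense gene and run away from it or across its first exon, it can start inside the gene, or it can start beyond the 3′ end and run back towards the sense gene. Antisense transcripts can act on the neighbouring gene in cis, as several well-studied examples do, or work elsewhere in the cell, and many have no known function. Their levels are often lower than those of messenger RNAs.

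The sequence around the start of 4 antisense genes is shown first, because these genes represent the 3 main arrangements and 3 of them stand above a sense gene with few reads. Each line is a RefSeq promoter window on GRCh38.p14, from 250 bases before to 50 bases after the start, written 5′ to 3′ on the strand of the antisense gene. Capitals mark the TATA box TATAAA, the CCAAT box CCAAT, the GC box GGGCGG and the ETS core CCGGAA on either strand. FGD5-AS1 (chr3:14948392-14948691, minus strand) starts beyond the 3′ end of its sense gene. MAGI2-AS3 (chr7:79452707-79453006, plus strand) and PITX1-AS1 (chr5:135033024-135033323, plus strand) start near the start of theirs. SDCBP2-AS1 (chr20:1325093-1325392, plus strand) starts inside its sense gene.
FGD5-AS1: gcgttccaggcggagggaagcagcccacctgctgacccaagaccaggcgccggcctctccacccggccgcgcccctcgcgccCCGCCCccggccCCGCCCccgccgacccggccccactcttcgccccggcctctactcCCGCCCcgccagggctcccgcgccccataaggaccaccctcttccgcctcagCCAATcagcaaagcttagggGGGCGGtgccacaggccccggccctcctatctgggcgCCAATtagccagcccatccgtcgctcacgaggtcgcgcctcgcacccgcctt
MAGI2-AS3: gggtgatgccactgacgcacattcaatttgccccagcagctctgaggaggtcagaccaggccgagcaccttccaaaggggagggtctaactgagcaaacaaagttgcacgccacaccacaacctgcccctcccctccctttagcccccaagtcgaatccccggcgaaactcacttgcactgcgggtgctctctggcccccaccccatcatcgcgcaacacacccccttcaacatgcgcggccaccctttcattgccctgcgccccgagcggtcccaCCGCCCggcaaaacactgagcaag
PITX1-AS1: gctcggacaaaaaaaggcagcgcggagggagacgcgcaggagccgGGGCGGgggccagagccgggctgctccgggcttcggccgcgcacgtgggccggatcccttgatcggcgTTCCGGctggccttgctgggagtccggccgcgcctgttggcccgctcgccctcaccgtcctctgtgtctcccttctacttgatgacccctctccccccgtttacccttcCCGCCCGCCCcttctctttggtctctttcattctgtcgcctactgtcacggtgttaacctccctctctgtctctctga
SDCBP2-AS1: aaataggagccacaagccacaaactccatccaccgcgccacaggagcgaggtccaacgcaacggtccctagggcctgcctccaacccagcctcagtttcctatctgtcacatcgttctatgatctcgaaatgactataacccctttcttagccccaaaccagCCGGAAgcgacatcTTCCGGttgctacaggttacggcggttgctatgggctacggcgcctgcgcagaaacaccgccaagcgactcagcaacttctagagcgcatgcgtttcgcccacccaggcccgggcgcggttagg

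The 4 windows differ in content. That of FGD5-AS1 had a GC content of 74.7% and 32 CpG sites, with 4 GC boxes and 2 CCAAT boxes. That of MAGI2-AS3 had a GC content of 62% and 16 CpG sites, with 1 GC box. That of PITX1-AS1 held 28 CpG sites, 3 GC boxes, of which 2 overlap, and 1 ETS core, and that of SDCBP2-AS1 held 23 CpG sites and 2 ETS cores. No TATA box was found in any of them. A match of letters is a description and not a binding site.

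Over the whole group, RefSeq windows were found for 93 of the 115 genes, which have 118 windows because some genes have several starts. The median window had a GC content of 64% (quartiles 57.4% and 70.7%) and 24 CpG sites (quartiles 16 and 34). The 859 windows of antisense genes under the threshold had a median GC content of 56.7% and 10 CpG sites, and all 35116 windows of the annotation had 58.7% and 14. The GC box was present in 59.3% of the windows of expressed antisense lncRNAs, in 38.2% of those under the threshold and in 45.0% of all. The ETS core was present in 28.0%, 14.0% and 17.2% in the same order. The TATA box was present in 4.24%, 10.5% and 11.5%. The CCAAT box was present in 31.4%, 32.5% and 34.6%. The 118 windows of expressed antisense lncRNAs were therefore, as a group, richer in CpG sites, GC boxes and ETS cores than both other groups. They were poorer in TATA boxes, while the CCAAT shares lay close together. Each window took the arrangement of its gene, set by the GENCODE canonical start, and was not placed itself. Some windows therefore lie elsewhere. Those of PCBP1-AS1, counted beyond the 3′ end, lie at or near the PCBP1 start. Those of IQCH-AS1, counted as inside, lie past the end of IQCH. For genes starting inside the sense gene (25 windows), the GC box share was 44% and the ETS share 16%. Both were under those of all windows. These 25 windows still had a higher median, 20 CpG sites. For genes starting beyond the 3′ end (45 windows) the GC box and ETS shares were 64.4% and 40%. For genes starting near the sense start (37 windows) they were 64.9% and 27.0%. Windows under the threshold were not split in this way. No base of a protein-coding exon lay in 57 of the 118 windows, and the rest held some. Windows of one gene overlap, so these shares are given with no test.

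Of the 1170 symbols in the table with one of the 3 suffixes, 306 had no read in any library and 1055 in all lay under the threshold, so 115 remained. Among the 115, 109 end in -AS1, 4 in -AS2 and 2 in -AS3. GENCODE 44 lists 113 of them, 111 as lncRNA. EMC3-AS1 is listed there as a transcribed pseudogene and RBM12B-AS1 as a gene to be experimentally tested. The canonical transcript of the 113 genes had a median length of 1841 bases, from 382 bases in ZEB1-AS1 to 16182 bases in GABPB1-AS1, and 9 of them had 1 exon.

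Antisense and sense gene could both be placed for 111 pairs, and all 111 lie on opposite strands. In 42 pairs (37.8%) the antisense gene starts beyond the 3′ end of the sense gene and overlaps it. In 37 pairs (33.3%) the starts of both canonical transcripts lie within 1000 bases of each other, an arrangement named paired starts here. In 29 pairs (26.1%) the antisense gene starts inside the sense gene, taken as the span of all its transcripts. Some of these, such as GNAS-AS1 and NHSL1-AS1, start upstream of the canonical sense transcript. MAGEA4-AS1 and NR2F1-AS1 start upstream of the sense gene and overlap it, and FOXD2-AS1 does not overlap FOXD2. The remaining 4 were HOXB-AS1 and HOXB-AS3, which are named after the HOXB cluster and not after a single gene, and LHX4-AS1 and HDLBP-AS1, which were not matched to GENCODE.

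Arrangement did not enter the choice of genes, and it differed from that of the antisense genes under the threshold. Among 1008 placed pairs under the threshold, 17.9% start beyond the sense 3′ end, against 37.8% of the expressed ones. A start inside the sense gene, by the same span, was found in 50.5% of the pairs under the threshold and in 26.1% of the expressed ones. Paired starts were found in 28.0% and 33.3%. The bar chart of arrangements gives all shares. They describe the annotation of one set of genes and carry no test.

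**Figure D1:**
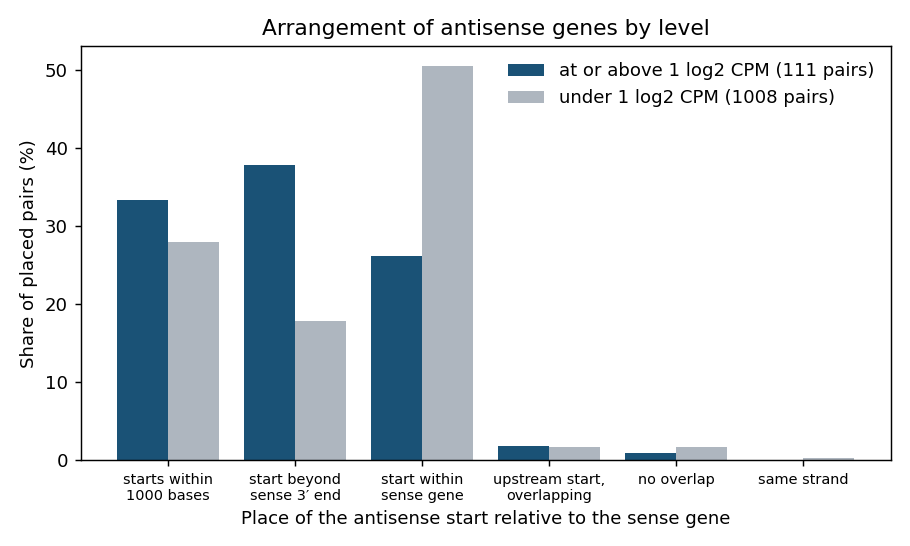
Share of placed antisense and sense gene pairs (vertical axis, %) by where the antisense gene starts (horizontal axis), for 111 pairs at or above 1 log2 CPM (dark bars) and 1008 pairs under it (grey bars). Starts beyond the sense 3′ end make up 37.8% of the dark and 17.9% of the grey bars, and starts within the sense gene 26.1% and 50.5%.

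The levels of the 115 genes spanned 1.02 to 7.44 log2 CPM, with a median of 2.25 and quartiles of 1.67 and 3.06. The median corresponds to a mean of 87.1 reads per library. FGD5-AS1 alone made up 15.7% of their summed CPM, and the first 10 genes made up 46.5%. The genes were chosen by these levels, which are therefore given as a description.

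**Figure D2:**
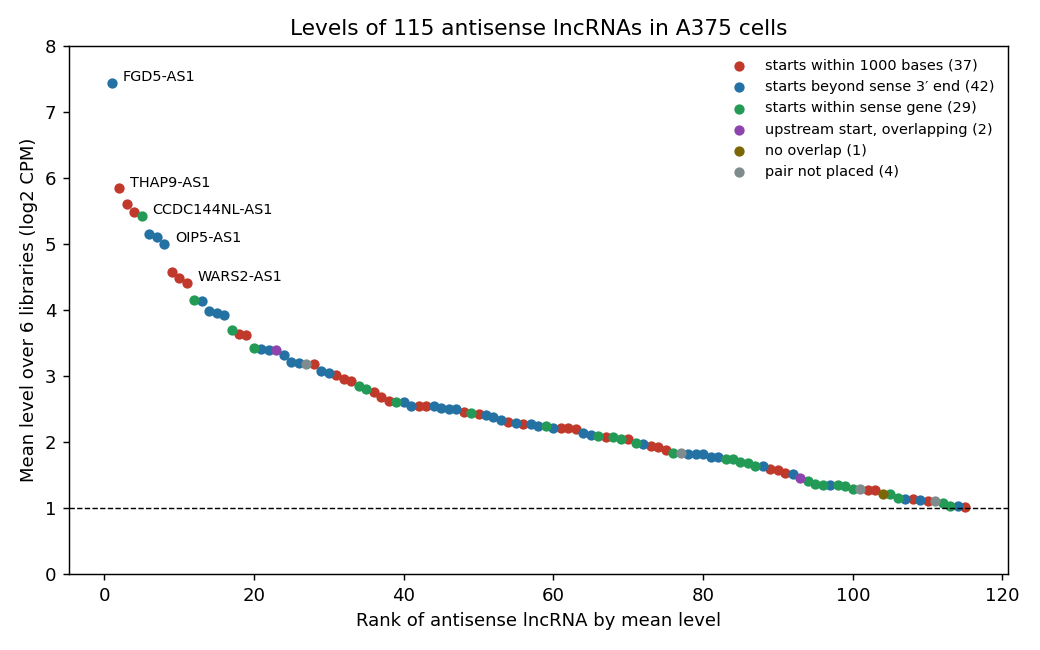
Mean level over the 6 libraries (vertical axis, log2 CPM) of the 115 expressed antisense lncRNAs, ranked from the highest (horizontal axis) and coloured by arrangement. Each point is 1 gene with no error bar, the dashed line is the threshold of 1 log2 CPM, and FGD5-AS1 at 7.44 stands apart from the next gene, THAP9-AS1, at 5.84.

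FGD5-AS1 (chromosome 3, 14920347 to 14948424) had the highest level, 7.44 log2 CPM or a mean of 3206 reads, which placed it at percentile 95.6 of all genes in the table. Its sense gene FGD5, an activator of the small GTPase CDC42 known from endothelial cells, had a mean of 0.100 reads. Against a floor of 3 reads per library, FGD5-AS1 was at least 4567-fold above FGD5 per kilobase of canonical transcript, and at least 1227-fold per kilobase of all annotated exons. THAP9-AS1 (chromosome 4, 82893009 to 82900960) followed at 5.84 log2 CPM, while THAP9, a gene derived from a DNA transposase, stood at 2.72. MAGI2-AS3 (chromosome 7, 79452877 to 79471208) had 5.48 log2 CPM and a mean of 821 reads. Its sense gene MAGI2, a scaffold protein of cell junctions, had a mean of 19.7 reads.

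Another 4 of the first 10 had sense genes read at higher levels. OTUD6B-AS1 (chromosome 8, 91059318 to 91070583) stood at 5.60 log2 CPM beside the deubiquitinase gene OTUD6B at 6.49. THUMPD3-AS1 (chromosome 3, 9349689 to 9398579) stood at 5.16 beside THUMPD3 at 6.44. PSMA3-AS1 (chromosome 14, 58265365 to 58298134) stood at 5.11 beside PSMA3, which encodes a proteasome subunit, at 7.15. WAC-AS1 (chromosome 10, 28522652 to 28533066) stood at 4.57 beside WAC at 7.70. Each of these 4 antisense lncRNAs was below its sense gene, both as deposited and per kilobase.

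OIP5-AS1 (chromosome 15, 41283958 to 41322392), a conserved lncRNA with the other name cyrano that is known for binding the microRNA miR-7, had 5.00 log2 CPM. OIP5, a gene of centromere assembly, had 4.56. The order of this pair turns with length, because per kilobase OIP5-AS1 stood 0.99 log2 units below OIP5. MAPKAPK5-AS1 (chromosome 12, 111839758 to 111842902) turned the other way, at 4.48 against 5.29 log2 CPM for the kinase gene MAPKAPK5. Per kilobase MAPKAPK5-AS1 stood 1.47 log2 units above MAPKAPK5. CCDC144NL-AS1 (chromosome 17, 20868433 to 21002276) had 5.43 log2 CPM beside CCDC144NL, itself listed as a lncRNA, at 4.56. It stood 3.42 log2 units above CCDC144NL per kilobase of canonical transcript but 0.94 below per kilobase of all exons. It is one of the genes whose sequence is partly shared with other genes, described further on.

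At the threshold, the genes just inside were ZEB1-AS1, MZF1-AS1, A1BG-AS1, PRRT3-AS1 and HDLBP-AS1, between 1.02 and 1.11 log2 CPM. The genes just outside were SAP30L-AS1, SLC16A1-AS1, HPN-AS1, ZNF606-AS1 and TRIM52-AS1, between 0.914 and 0.996. ZEB1-AS1 and SAP30L-AS1 differ by less than 1 read in the mean per library, 36.8 against 36.2.

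The second question was how each antisense lncRNA stood beside its sense gene. Of the 113 sense genes in the table, 93 (82.3%) had a level of 1 log2 CPM or more, with a median of 4.56. For antisense genes under the threshold, 59.8% of the sense genes had such a level, with a median of 2.57. Over the whole table, which includes lncRNAs and 7012 genes with no read, the share was 41.4%. Sense genes of expressed antisense lncRNAs were thus expressed more often than either, although the rule did not use their levels. The whole table is an unlike background, since nearly all the placed sense genes are protein-coding.

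Per kilobase of canonical transcript, 40 of 111 antisense lncRNAs stood above their sense gene and 71 below, with a median difference (antisense minus sense) of −0.86 log2 units. Per kilobase of all annotated exons the median was −1.47, and the order turned in 17 pairs, leaving 28 above and 66 below by both lengths. In 24 pairs the antisense lncRNA was higher by more than 2 log2 units, in 36 it was lower by more than 2, and 51 pairs lay within 2. Among the 1007 pairs under the threshold, 225 antisense genes stood above their sense gene and the median difference was −3.63, but the threshold on the antisense level itself moves this difference. Spearman's rho between the levels per kilobase was 0.04 over the 111 expressed pairs and 0.48 over all 1118 pairs. The points of each correlation are genes of the same libraries, and the threshold narrows the range of the first.

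**Figure D3:**
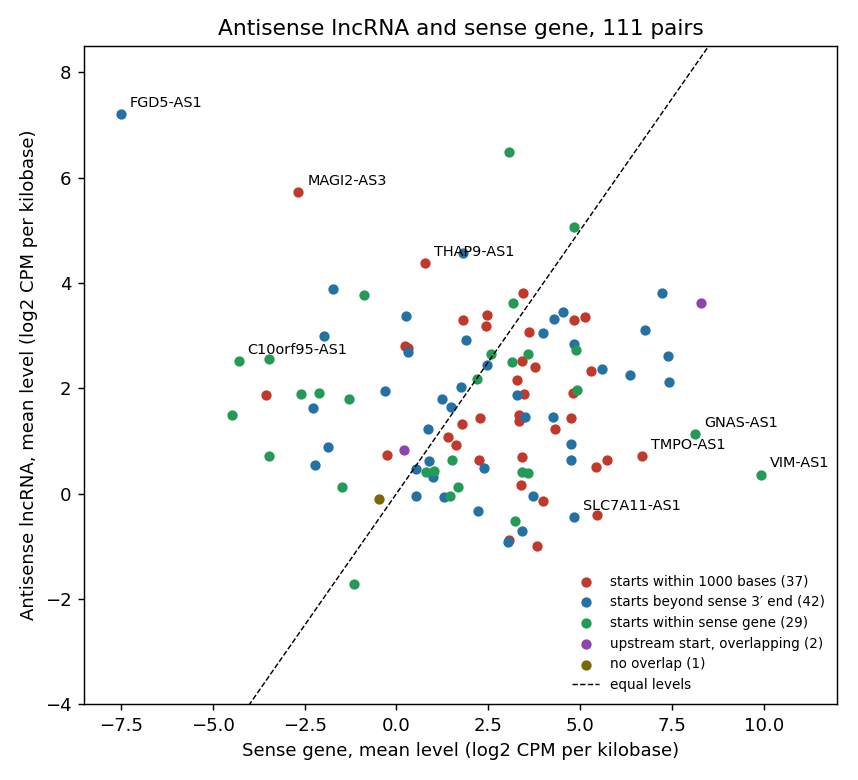
Mean level of each antisense lncRNA (vertical axis) against that of its sense gene (horizontal axis), both in log2 CPM per kilobase of canonical transcript, for 111 pairs coloured by arrangement, with no error bars. Points above the dashed line of equal levels are the 40 pairs with the antisense lncRNA higher, FGD5-AS1 lies far to the upper left and VIM-AS1 far to the right.

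By arrangement, 10 of 37 antisense lncRNAs with paired starts stood above their sense gene, with a median difference of −1.54 log2 units per kilobase. The same held for 15 of 42 that start beyond the sense 3′ end (median −0.97) and for 13 of 29 that start within it (median −0.39). Per kilobase of all exons these counts were 8, 12 and 12, with medians of −1.85, −1.66 and −0.61. The sense genes of these groups had median levels of 5.29, 4.06 and 3.95 log2 CPM, and the antisense lncRNAs themselves had 2.42, 2.46 and 1.75. Sense genes under 1 log2 CPM numbered 3 among the paired starts, 6 among the starts beyond the 3′ end and 10 among the starts within the gene.

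The antisense starts of the 37 pairs with paired starts lay a median of 269 bases from the sense start. In 15 pairs the antisense gene starts upstream of the sense start, so that both genes run away from each other. In 22 it starts downstream and runs towards the sense start. RBM12B-AS1 (93740121 to 93740773), which starts 888 bases downstream, ends before reaching the sense start. The closest pairs were ZNF674-AS1, ZNF407-AS1 and NNT-AS1, which start 17, 35 and 42 bases upstream of their sense genes. NNT-AS1 (chromosome 5, 43571594 to 43603230) had 3.65 log2 CPM and a mean of 230 reads. NNT, the mitochondrial transhydrogenase that makes NADPH, had 6.03 and a mean of 1200 reads. WARS2-AS1 starts 77 bases upstream of WARS2, the mitochondrial tryptophanyl-tRNA synthetase gene. Its level of 3.80 log2 CPM per kilobase lay 0.34 above that of WARS2, but per kilobase of all exons WARS2-AS1 stood 2.17 below. NNT-AS1 stood 1.96 log2 units below NNT per kilobase and 1.60 below per kilobase of all exons.

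The sense gene was under 1 log2 CPM for 20 antisense lncRNAs, and those with few sense reads are described here by example. FGD5, SDCBP2 and C10orf95 had at most 3 reads in the mean. SDCBP2-AS1 (chromosome 20, 1325400 to 1378735) had a mean of 112 reads and C10orf95-AS1 (chromosome 10, 102449816 to 102461106) had 46.5. Against the floor of 3 reads SDCBP2-AS1 was at least 22.1-fold above its sense gene per kilobase, and at least 15.4-fold per kilobase of all exons. For C10orf95-AS1, whose canonical transcript of 445 bases covers little of its 6205 exon bases, the bound was 44.3-fold by the first length and 3.18-fold by the second. PITX1, a homeobox factor of hindlimb development, had a mean of 3.14 reads beside 166 for PITX1-AS1. TM4SF19, CD27 and ATP6V1B1 had means of 3.40, 4.77 and 5.32 reads, beside 104, 78.4 and 77.0 for their antisense lncRNAs. DLGAP1, a scaffold of the postsynaptic density, is the sense gene of both DLGAP1-AS1 and DLGAP1-AS2. It had a mean of 10.6 reads, against 59.5 and 86.8 for the 2 antisense lncRNAs.

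Among the antisense lncRNAs far below their sense gene, VIM-AS1 (chromosome 10, 17214239 to 17230018) had a mean of 44.4 reads. Its sense gene VIM, which encodes the intermediate filament protein vimentin, had 38125, and VIM-AS1 stood 9.55 log2 units below it per kilobase. GNAS-AS1 (chromosome 20, 58818918 to 58850903), a transcript of the imprinted locus of the G protein subunit GNAS, stood 7.0 log2 units below GNAS per kilobase. TMPO-AS1 (chromosome 12, 98512973 to 98516422) stood 5.99 below TMPO, which encodes lamina-associated polypeptides of the nuclear envelope. SLC7A11-AS1 (chromosome 4, 138057464 to 138178177) had 1.77 log2 CPM and a mean of 62.2 reads. SLC7A11, the cystine and glutamate antiporter gene that supplies cystine for glutathione, had 8.10 and a mean of 5042 reads. SLC7A11-AS1 stood 5.28 below it per kilobase. Per kilobase of all exons, VIM-AS1, GNAS-AS1, TMPO-AS1 and SLC7A11-AS1 stood 8.45, 5.08, 4.95 and 5.68 log2 units below their sense genes.

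Reads in exon bases that both genes of a pair share can be told apart only by strand, and the use of strand in the authors' counting is not given in the sources used here. Exons of the antisense gene overlapped those of the sense gene in 92 of 111 pairs and not in 19. The median overlap was 4.53% of the antisense exon bases, over all GENCODE transcripts of both genes. More than 25% was shared in 17 pairs and more than 50% in 3. These 3 were AP1G2-AS1 with 83.3%, RBM5-AS1 with 72.7% and PITPNA-AS1 with 63.9%, all 3 below their sense gene per kilobase. VIM-AS1 shared 30.9%, GNAS-AS1 30.8%, TMPO-AS1 19.2%, SLC7A11-AS1 14.0% and FGD5-AS1 2.91%.

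Some antisense lncRNAs also share sequence with other genes. Of 113 canonical transcripts, 62 had no 50-base stretch in common with a transcript of another gene read in the same direction, and 11 had more than 10% of their stretches in common. ATP6V1B1-AS1 was highest with 73.4%, all shared with 1 gene that GENCODE lists without a symbol. OIP5-AS1 followed with 40.0%, CCDC144NL-AS1 with 38.0%, NUTM2A-AS1 with 36.1% and EMC3-AS1 with 35.9%. FGD5-AS1 was not among these 11, and THAP9-AS1 had 15.0%, all in common with SEC31A. Levels of the genes with a large shared part are uncertain, since reads of the shared stretches could be split between genes or left out.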

How the data were processed

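RNA-seq libraries of A375 cells treated with OLO or OZO (3 per group, assigned from the treatment labels) were made with a directional kit. Per the paper's methods and the submitters' processing notes, the authors aligned reads to hg38 with HISAT2 2.1.0, counted them with featureCounts 2.1.1 and fitted limma 3.58.1 (voom). Normalization factors, filters and strand setting are not given in the sources used here. The deposited log2 values used are the authors' mean log2 CPM over all 6 libraries, with 0.5 added to each count. The table also holds the authors' own comparison (fold changes, moderated t, p-values, adjusted p-values and log-odds), which was not used, so sense and antisense genes are set side by side by level only and no test was run.

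Library size and mean reads were derived from the lowest level. The mean read number is the geometric mean of reads plus 0.5, less 0.5. All (100%) of the 12761 lowest genes fell within 0.02 of an odd whole number in the product of doubled reads plus 1, as that derivation requires. The floor of 3 reads covers counting error only. Genes were matched to GENCODE 44 by symbol, otherwise by Ensembl identifier, on the same build, and levels were divided by canonical transcript length. Motifs were searched on both strands. Scripts ran in Python 3.11.15 with pandas 2.3.3 and were tested on simulated data. The antisense lncRNAs and lists were chosen with earlier results of these data known. Genes named are the 10 highest, the 5 on either side of the threshold and, chosen after their values were seen, examples among those with large differences, close starts or large overlaps, SLC7A11-AS1 among them for its sense gene. Printed windows hold no base of a protein-coding exon and start within 100 bases of the GENCODE start. One of the genes singled out for its start is not reported here.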

Additional observations from a re-analysis of the deposited data

How the results depend on the processing

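The number of expressed antisense lncRNAs, 115, became 181 at a threshold of 0 log2 CPM and 70 at 2 log2 CPM. The number above their sense gene stayed within 1.5 times, at 33 as deposited and 33 per kilobase of all exons, against 40. The share above their sense gene, 36.0%, was 38.3% among pairs sharing at most 25% of antisense exon bases, and 28 pairs had starts within 500 bases and 42 within 2000. The settings other than the thresholds and the level as deposited were chosen after seeing the data. No paired analysis was possible because the values used are means over all libraries. For the same reason leaving out each replicate, other normalizations, filters and pseudocounts were not run, and no difference between OZO and OLO can be read from these levels.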
